A study of Homo sapiens with 6 samples.

Results

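The p53 target genes described here are 30 genes known as transcriptional targets of the tumour suppressor p53, taken by symbol from the gene count table of an RNA-seq experiment on the human gastric cancer cell line MKN45. All 30 were in the table of 29744 symbols, 29 of them under the listed symbol and TIGAR under its older name C12orf5. All 30 also passed the filter on low counts that left 14958 genes for testing, EDA2R only through 2 of the 3 lines. The study compared 3 lines with 2 libraries each. HER2R, labelled MKN-HER2 and MKN45-HER2 as well, is a derivative of MKN45 resistant to a HER2-TCB. CEAR, labelled MKN-CEAR, is a derivative resistant to a CEACAM5-TCB. MKN45 itself is the sensitive line from which both came. A TCB is a T-cell bispecific antibody, which binds a tumour antigen, here HER2 or CEACAM5, on the tumour cell and CD3 on the T cell. The labels give the treatment of all 6 samples as none and describe culture in serum-containing medium. They do not say whether the resistant lines had been kept with a TCB before harvest, whether each is a clone or a pool, how long it was selected, or whether the libraries within a line represent separate cultures. The p-values therefore measure only the spread between these libraries, which may be technical.

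p53 is a transcription factor that is held at a low level by the ubiquitin ligase MDM2 and accumulates after DNA damage and other stresses. It binds DNA as a tetramer, at sites made of a pair of 10-base half-sites, and switches on genes that stop the cell cycle, repair DNA, adjust metabolism or start cell death, along with genes such as MDM2 and PPM1D that switch p53 off again. Many of these genes also answer to other regulators and are expressed at a basal level in unstressed cells.

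Promoter sequence was searched for exact matches to the consensus p53 half-site close to the start of each gene. RefSeq promoter windows (GRCh38.p14) of 300 bases, 250 before and 50 after each annotated start, were found for 26 of the 30 genes, in 37 windows. The consensus p53 half-site, a palindromic 10-base pattern that reads the same on both strands, was in 6 of the 37 windows (16.2%), against 2329 of all 35116 windows (6.63%). A full site, meaning a pair of half-sites with a spacer of at most 13 bases, was in the DDB2 window and in 10 of all windows (0.0285%). The 6 matches are printed 5′ to 3′ on the gene's strand with the half-sites in capitals. They lie at chr5:58460199-58460228 (minus strand, PLK2), chr6:109009018-109009047 (minus, SESN1), chr11:47214975-47215003 (plus, DDB2), chr15:63157517-63157546 (minus, RPS27L), chr15:88621296-88621325 (plus, AEN) and chr17:74872986-74873015 (minus, FDXR).
PLK2: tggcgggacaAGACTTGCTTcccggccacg
SESN1: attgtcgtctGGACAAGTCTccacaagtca
DDB2: gtttGAACAAGCCCtGGGCATGTTTggcg
RPS27L: ggcctagagcAGACAAGCCCgccccgccgc
AEN: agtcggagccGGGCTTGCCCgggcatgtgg
FDXR: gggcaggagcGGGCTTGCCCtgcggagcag
The DDB2 match begins at base 6, counting the annotated RefSeq start as the first base, and the PLK2 match lies 132 to 123 bases before the start. By the GENCODE 29 positions given for genes below, all 6 matches lie inside their genes. PLK2 had the highest fold change among the genes called higher in HER2R cells against MKN45. The 250 bases before its RefSeq start (chr5:58460087-58460336, minus strand) are therefore given with the half-site in capitals. Part of this stretch lies inside the GENCODE gene (58453982 to 58460260).
PLK2 upstream: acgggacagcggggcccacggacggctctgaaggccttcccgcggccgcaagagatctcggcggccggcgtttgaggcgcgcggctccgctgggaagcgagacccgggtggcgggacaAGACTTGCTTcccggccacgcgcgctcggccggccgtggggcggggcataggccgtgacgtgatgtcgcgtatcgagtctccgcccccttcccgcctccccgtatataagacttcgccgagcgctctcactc
A match in these windows is a description of the letters and not evidence of binding. Imperfect sites and sites outside the windows were not searched, so a gene without a match may still have a p53 site. Of the 6 genes that hold one, PLK2 was called higher and RPS27L lower in HER2R cells against MKN45, and none was called in CEAR cells against MKN45 in the edgeR test described next.

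The 6 libraries held 39657353 to 57964246 counts in genes, of which the ribosomal RNA precursor RNA45S5 took 8.88% to 10.65%. Levels are given in CPM, the counts scaled to a common library total, on totals scaled by the TMM method, which corrects for composition; 1 count was worth 0.0177 to 0.0255 CPM. Differences are log2 fold changes with standard errors from edgeR's quasi-likelihood test, fitted on all 6 libraries together, and a gene is called at a Benjamini-Hochberg adjusted p under 0.05 over all 14958 tested genes. Both libraries of each line differed beyond counting noise (chi-square divided by its degrees of freedom 60.7 in HER2R, 90 in CEAR and 128 in MKN45). The 10 gastric and simple epithelial markers summed to 12040 and 15820 CPM in HER2R, 8527 and 10650 CPM in CEAR and 10700 and 13320 CPM in MKN45, with GKN1 at 0 in all; most of these sums was KRT8 and KRT18. Single markers moved apart: CLDN18 was higher in CEAR than in MKN45 (log2 fold change 4.06, adjusted p = 0.00242) and lower in HER2R than in CEAR (-3.91), MUC5AC was lower in HER2R than in CEAR (-7.07, adjusted p = 0.0464) and EPCAM higher (0.79, adjusted p = 0.0327). The calls of CLDN18 held without any 1 library, while those of MUC5AC and EPCAM held in 2 of the 6 left-out fits (up to 0.190 and 0.168). Their part in the results below was not tested. Leukocyte markers summed to at most 15.4 CPM, nearly all of it CD68, and fibroblast markers to at most 7.67 CPM, nearly all of it COL1A1. CD3D, CD2, MS4A1, COL3A1, PDGFRA and DCN were at 0 in every library, and endothelial markers summed to at most 0.255 CPM. In bulk RNA, fewer expressing cells and less RNA per cell cannot be told apart.

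In HER2R cells against MKN45, the p53 targets were split. Of the 30, 4 were called higher (PLK2, GDF15, CCNG2 and PLK3), against 4.89% of all tested genes, and 4 were called lower (SPATA18, ZMAT3, TRIAP1 and RPS27L), against 4.85% of all. The other 22 were not called. DESeq2 called 4 higher and 6 lower (9.1% and 9.75% of all tested genes) and limma-voom 4 and 4 (4.71% and 4.35%). The median log2 fold change of the 30 was -0.36, against -0.02 for all tested genes, and 21 of the 30 fitted values were below 0. Both libraries of HER2R lay above both of MKN45 for 7 genes and below them for 15, against 27.8% and 29.3% of all tested genes, and the ranges overlapped for 8. The counts called higher and lower were 2 and 1 without HER2R library 1, 1 and 0 without HER2R library 2, 3 and 2 without either CEAR library, 2 and 1 without MKN45 library 1, and 1 and 1 without MKN45 library 2.

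In CEAR cells against MKN45 the called genes all lay on one side. None of the 30 was called higher, against 2.57% of all tested genes, and 8 were called lower, against 3.62%: EDA2R, SPATA18, CDKN1A, CYFIP2, PERP, TIGAR, ZMAT3 and PHLDA3. DESeq2 called 0 higher and 12 lower (6.28% and 7.75% of all tested genes), limma-voom 0 and 9 (2.4% and 3.35%), and at an unadjusted p under 0.05 edgeR gave 1 higher (GADD45A) and 16 lower, against 10.8% and 12.5% of all tested genes. The median log2 fold change was -0.67 against 0.00 for all tested genes, and -0.63 without EDA2R, which had 0 counts in CEAR. Of the 30 fitted values, 25 were below 0. The CEAR libraries both lay below both MKN45 libraries for 22 genes and above them for 3, against 25.6% and 25.0% of all tested genes. The count called lower was 5 without either HER2R library, 4 without either CEAR library and 3 without either MKN45 library.

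Set against each other, HER2R cells had 7 of the 30 called higher than CEAR cells (EDA2R, PLK2, GDF15, CDKN1A, PERP, PLK3 and CYFIP2), against 7.32% of all tested genes, and 0 called lower in edgeR, against 6.75%. At an unadjusted p under 0.05 the counts were 11 higher and 4 lower, against 16.3% and 15.6% of all tested genes; DESeq2 called 10 higher and 1 lower (11.9% and 11.0% of all tested genes) and limma-voom 7 and 0 (6.76% and 6.1%). The median was 0.43 against 0.00 for all. The count called higher was 3 without HER2R library 1, 2 without HER2R library 2 or CEAR library 1, 4 without CEAR library 2 and 6 without either MKN45 library. This comparison and the one of CEAR with MKN45 share the CEAR libraries, and the 2 comparisons with MKN45 share the MKN45 libraries, so the 3 sets of calls are not independent.

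**Figure D1:**
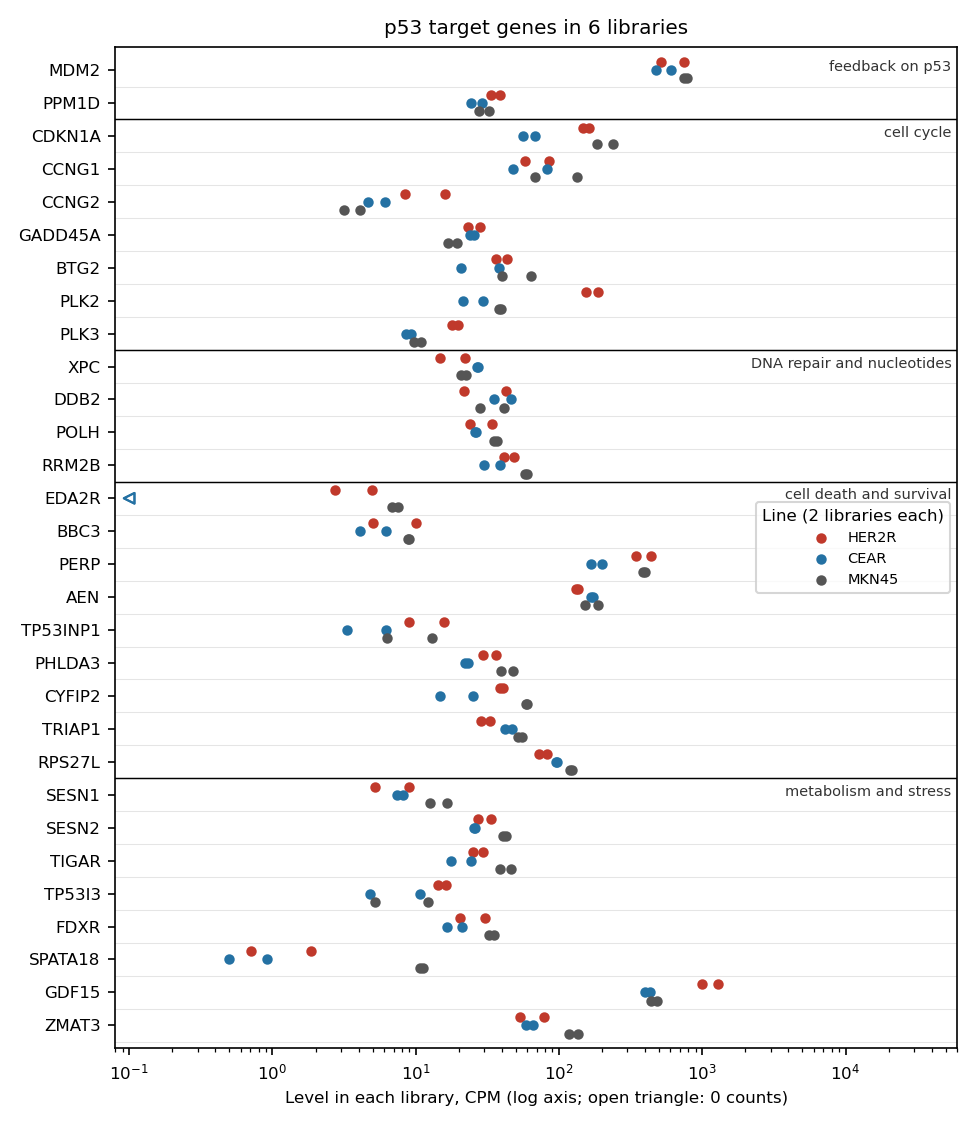
Level of each of the 30 p53 target genes in each library, in CPM on a log axis, grouped by role, with HER2R in red, CEAR in blue and MKN45 in grey; each point is 1 library and the open triangle marks 0 counts. SPATA18 lies near or below 2 CPM in both derivatives and near 11 CPM in MKN45, PLK2 and GDF15 stand highest in HER2R, and EDA2R has no counts in CEAR.

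**Figure D2:**
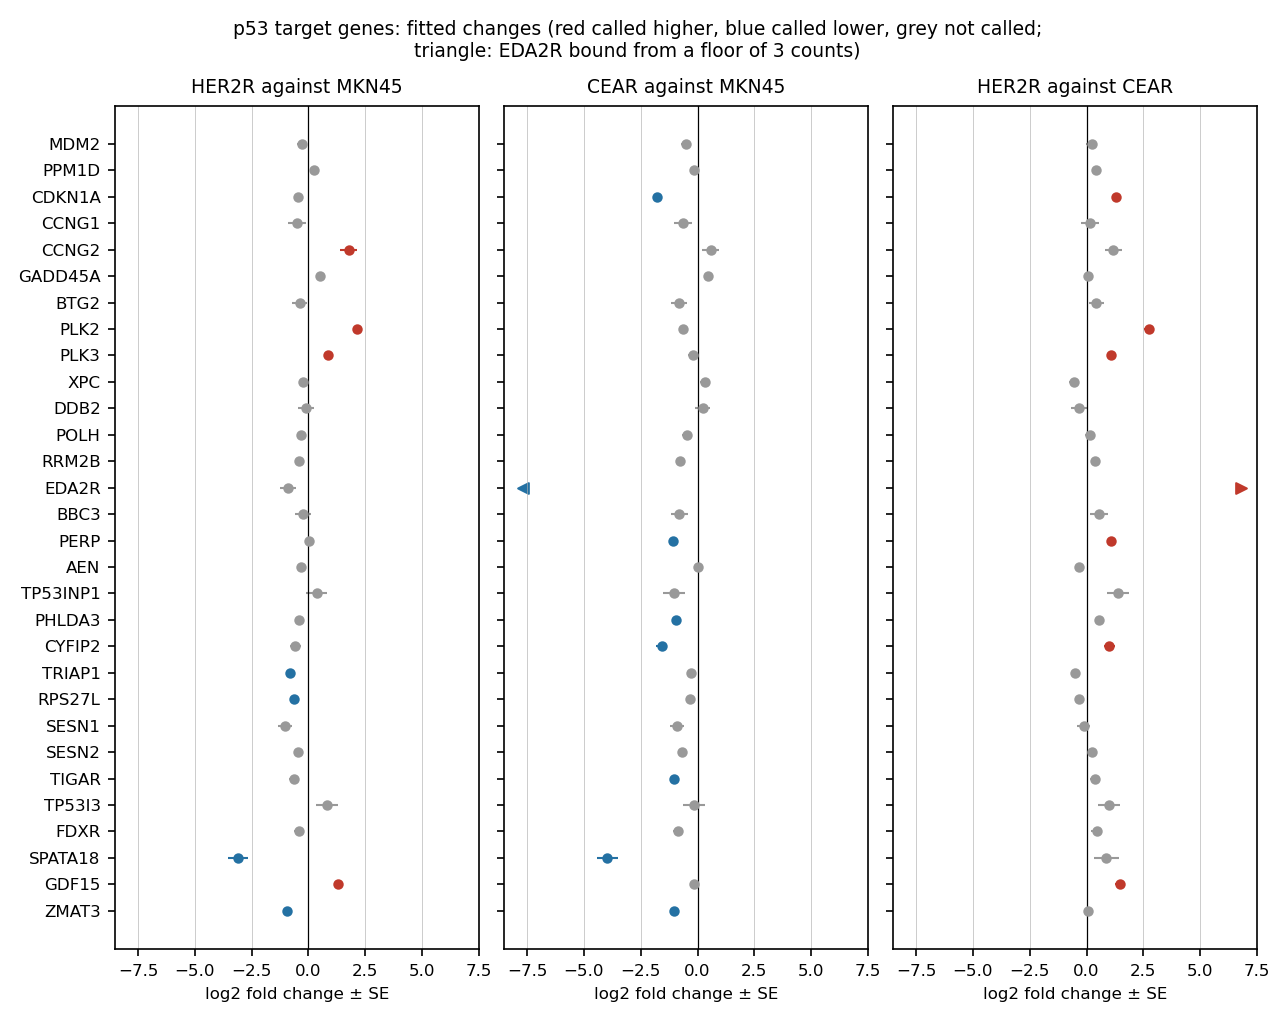
Log2 fold change ± SE of each gene in the 3 comparisons, red where called higher, blue where called lower and grey where not called; the triangles mark the bounds for EDA2R from a floor of 3 counts. In the middle panel all 8 coloured points lie left of 0, in the right panel all 7 lie right of it, and in the left panel 4 lie on each side.

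The replicate numbers of the labels behaved as pairs (same-numbered libraries of different lines deviated together), and entering the number as a block raised the counts. With the block, 6 of the 30 were called higher and 14 lower in HER2R against MKN45 (16.2% and 17.5% of all tested genes), 1 higher and 18 lower in CEAR against MKN45 (12.0% and 13.8%), and 16 higher and 4 lower in HER2R against CEAR (19.7% and 18.6%). In HER2R against MKN45 the block added GADD45A and TP53I3 as higher (adjusted p = 0.0190 and 0.0234). It added as lower TIGAR, SESN1, SESN2, CCNG1, RRM2B, CDKN1A, EDA2R, CYFIP2, AEN and FDXR, with adjusted p between 0.00476 for TIGAR and 0.0475 for FDXR. In CEAR against MKN45 it added GADD45A as higher (adjusted p = 0.0316) and, as lower, RRM2B, FDXR, BTG2, SESN2, PLK2, CCNG1, MDM2, SESN1, RPS27L and BBC3, between 0.00311 for RRM2B and 0.0477 for BBC3. In HER2R against CEAR it added TP53I3, CCNG2, PPM1D, PHLDA3, TP53INP1, BTG2, TIGAR, RRM2B and FDXR as higher, between 0.0126 for TP53I3 and 0.0462 for FDXR. The 4 called lower in HER2R than in CEAR were TRIAP1, XPC, AEN and RPS27L (adjusted p = 0.00602, 0.0251, 0.0340 and 0.0399 with the block).

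Neither of the 2 targets that feed back on p53, MDM2 and PPM1D, was called in any comparison by the fit without the block. Among all tested genes that fit called from 2.57% (higher in CEAR than in MKN45) to 7.32% (higher in HER2R than in CEAR) per direction. MDM2 (chromosome 12, 68808176 to 68850686), which marks p53 for degradation, had 748 and 512 CPM in HER2R, 603 and 476 CPM in CEAR and 787 and 748 CPM in MKN45. Both CEAR libraries lay below both MKN45 libraries, and the HER2R libraries overlapped with both other lines. Its log2 fold change was -0.28 ± 0.23 in HER2R against MKN45 (adjusted p = 0.457) and -0.51 ± 0.23 in CEAR against MKN45 (adjusted p = 0.244). PPM1D, the phosphatase WIP1 that removes activating phosphates from p53 and its kinases, ranged from 24.4 to 38.5 CPM over the 6 libraries, with both HER2R libraries above both of the other lines.

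Of 7 genes that act on the cell cycle, 3 were called higher in HER2R than in MKN45. In CEAR, 1 was called lower than in MKN45, and 3 were called higher in HER2R than in CEAR. The shares of all tested genes called in these directions were 4.89%, 3.62% and 7.32% in the same order. CDKN1A encodes p21, the inhibitor of cyclin-dependent kinases through which p53 arrests cells in G1, and lies on chromosome 6 (36676460 to 36687339, GRCh38, as all gene positions here). It had 162 and 148 CPM in HER2R, 55.8 and 68.4 CPM in CEAR and 184 and 237 CPM in MKN45. The 3 lines did not overlap, CEAR lying lowest and MKN45 highest. CDKN1A was 3.39-fold lower in CEAR than in MKN45 (log2 fold change -1.76 ± 0.18, adjusted p = 0.00639), and the call held without any 1 library. It was 2.49-fold higher in HER2R than in CEAR (1.32 ± 0.18, adjusted p = 0.0111), a call lost without HER2R library 1 (0.0720), HER2R library 2 (0.0703) or CEAR library 1 (0.0506). HER2R against MKN45 gave -0.45 ± 0.17 (adjusted p = 0.155). DINOL, an antisense transcript annotated over CDKN1A, cannot be told apart from it unless the counting used strand, which the sources used here do not state; 16 of the 30 genes overlap an annotated gene on the opposite strand.

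PLK2, a polo-like kinase induced by stress and active in centriole duplication, lies on chromosome 5 (58453982 to 58460260). It had 153 and 187 CPM in HER2R, 21.3 and 29.4 CPM in CEAR and 38.4 and 39.3 CPM in MKN45. HER2R stood apart above both other lines, and CEAR lay below MKN45 in both libraries. PLK2 was 4.38-fold higher in HER2R than in MKN45 (2.13 ± 0.19, adjusted p = 0.00369) and 6.72-fold higher than in CEAR (2.75 ± 0.20, adjusted p = 0.00229), and both calls held without any 1 library. CEAR against MKN45 was -0.62 ± 0.19 (adjusted p = 0.113; 0.00743 with the block and 0.0447 by DESeq2).

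PLK3, a related polo-like kinase of the stress response on chromosome 1 (44800225 to 44805990), had 19.9 and 17.9 CPM in HER2R, 8.55 and 9.21 CPM in CEAR and 9.80 and 10.9 CPM in MKN45. The lines did not overlap, with HER2R highest, as for PLK2. It was 1.83-fold higher in HER2R than in MKN45 (0.87 ± 0.18, adjusted p = 0.0333), a call that leaving out any single library ended (adjusted p from 0.0557 to 0.179), as did the compared lines alone (0.0526). It was 2.13-fold higher in HER2R than in CEAR (1.09 ± 0.18, adjusted p = 0.0177), which was lost without either HER2R library (0.108 without library 1 and 0.0938 without library 2) or either CEAR library (0.0853 and 0.0808). TCTEX1D4 is annotated on the opposite strand.

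CCNG2, an atypical cyclin linked to cell cycle arrest and also known as a FOXO target, lies on chromosome 4 (77157151 to 77433388). It had 8.48 and 15.9 CPM in HER2R, 6.10 and 4.63 CPM in CEAR and 3.15 and 4.07 CPM in MKN45. The lines did not overlap, but the 2 HER2R libraries differed from each other more than CEAR did from MKN45. It was 3.39-fold higher in HER2R than in MKN45 (1.76 ± 0.36, adjusted p = 0.0340), a call lost without HER2R library 1 (0.0547) or 2 (0.155) or MKN45 library 1 (0.122) or 2 (0.0932). In HER2R against CEAR it was at 1.19 ± 0.36 (adjusted p = 0.0726; 0.0160 with the block and 0.0173 by DESeq2).

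The other 3 genes of this group were not called by the edgeR fit described above. CCNG1, cyclin G1, ranged from 47.9 to 134 CPM, and library 1 was above library 2 in each line. GADD45A, a damage-induced growth arrest protein, had 28.1 and 23.0 CPM in HER2R, 25.5 and 24.0 CPM in CEAR and 19.4 and 16.8 CPM in MKN45, so both derivatives lay above MKN45. Its log2 fold change was 0.49 ± 0.17 in HER2R against MKN45 and 0.45 ± 0.17 in CEAR against MKN45 (adjusted p = 0.121 and 0.184). BTG2, an antiproliferative regulator of mRNA deadenylation, ranged from 20.8 to 63.8 CPM, with library 2 above library 1 in each line.

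None of the 4 genes of DNA repair and nucleotide supply was called in any comparison by the edgeR fit described above. That is near the shares of all tested genes called per direction, from 2.57% (higher in CEAR than in MKN45) to 7.32% (higher in HER2R than in CEAR). With the block RRM2B was called in every comparison and XPC in HER2R against CEAR. XPC and DDB2, which recognise lesions in nucleotide excision repair, ranged from 14.8 to 27.2 CPM and from 21.9 to 46.1 CPM. DDB2, the gene with the full p53 site near its start, had 42.5 and 21.9 CPM in HER2R, 46.1 and 35.5 CPM in CEAR and 41.6 and 28.2 CPM in MKN45. Its lines overlapped in every comparison, and library 2 was the lower one in each line. POLH, the translesion polymerase eta, ranged from 23.8 to 36.9 CPM. RRM2B, the p53-inducible subunit of ribonucleotide reductase, had 48.2 and 41.1 CPM in HER2R, 38.8 and 29.9 CPM in CEAR and 58.1 and 59.8 CPM in MKN45. Both derivatives lay below MKN45, by -0.40 ± 0.17 in HER2R (adjusted p = 0.183) and -0.78 ± 0.17 in CEAR (adjusted p = 0.0514). The value in CEAR lies at the threshold: it was 0.0499 with the filter of 1 CPM, 0.00297 by DESeq2 and 0.00311 with the block.

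Among 9 genes of cell death and survival, 2 were called lower in HER2R than in MKN45. In CEAR, 4 were called lower than in MKN45, and 3 were called higher in HER2R than in CEAR. The shares of all tested genes called in these directions were 4.85%, 3.62% and 7.32% in the same order. EDA2R, a receptor of the tumour necrosis factor receptor family for the ectodysplasin isoform EDA-A2, lies on the X chromosome (66595637 to 66639298). It had 194 and 108 counts in HER2R (4.94 and 2.76 CPM), 0 and 0 counts in CEAR, and 387 and 332 counts in MKN45 (6.86 and 7.55 CPM). With a floor of 3 counts over both CEAR libraries, equal to 0.0349 CPM, EDA2R was at least 205-fold lower in CEAR than in MKN45 and at least 110-fold lower in CEAR than in HER2R. The edgeR adjusted p was 0.00676 for CEAR against MKN45 and 0.00922 for HER2R against CEAR, and the fitted log2 values depend on the prior count. EDA2R passed the filter on low counts only through HER2R and MKN45, so these p-values add no support beyond the counts themselves. It is included in the 8 genes called lower in CEAR than in MKN45 and the 7 called higher in HER2R than in CEAR. HER2R lay below MKN45 in both libraries (-0.90 ± 0.35), which was not called (adjusted p = 0.161).

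PERP, a tetraspan membrane protein of desmosomes that p53 induces during apoptosis, lies on chromosome 6 (138088505 to 138107511). It had 343 and 442 CPM in HER2R, 199 and 167 CPM in CEAR and 383 and 399 CPM in MKN45. CEAR lay below the other lines, and HER2R spanned MKN45. It was 2.13-fold lower in CEAR than in MKN45 (-1.09 ± 0.18, adjusted p = 0.0209), lost without CEAR library 1 (0.0698) or 2 (0.120) or MKN45 library 1 (0.0677) or 2 (0.0810). It was 2.14-fold higher in HER2R than in CEAR (1.10 ± 0.18, adjusted p = 0.0160), lost without HER2R library 1 (0.0545) or 2 (0.0960) or CEAR library 1 (0.0514) or 2 (0.0911).

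CYFIP2, a subunit of the actin-regulating WAVE complex, lies on chromosome 5 (157266079 to 157395595). It had 40.8 and 39.0 CPM in HER2R, 14.8 and 25.0 CPM in CEAR and 58.6 and 59.9 CPM in MKN45. The lines were in the same order as for CDKN1A, without overlap. It was 2.98-fold lower in CEAR than in MKN45 (-1.58 ± 0.25, adjusted p = 0.0195), lost without HER2R library 1 (0.0540) or 2 (0.0530) or MKN45 library 1 (0.0620) or 2 (0.0678), and with the 4 compared libraries alone (0.0571). It was higher in HER2R than in CEAR (1.00 ± 0.24, adjusted p = 0.0431), a call lost without each of the 6 libraries except CEAR library 2, at 0.0584 to 0.164. It was also lost with the compared lines alone (0.0616) and with no filter on low counts (0.0631).

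PHLDA3, an inhibitor of the survival kinase AKT on chromosome 1 (201464383 to 201469237), had 36.4 and 29.7 CPM in HER2R, 22.0 and 23.1 CPM in CEAR and 39.3 and 47.8 CPM in MKN45. The lines did not overlap and again had CEAR lowest. It was 1.93-fold lower in CEAR than in MKN45 (-0.95 ± 0.17, adjusted p = 0.0302), lost without any 1 library (0.0589 to 0.133) and with the compared lines alone (0.0610). HER2R lay between them, 0.55 ± 0.17 above CEAR (adjusted p = 0.0822; 0.0217 with the block and 0.0362 by DESeq2).

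TRIAP1 and RPS27L had the opposite order of the derivatives, with HER2R below CEAR. That difference was not called by the edgeR fit without the block (adjusted p = 0.0565 and 0.143). XPC and AEN also had both HER2R libraries below both CEAR libraries. TRIAP1, a mitochondrial lipid transfer protein that restrains apoptosis, on chromosome 12 (120443961 to 120446412), had 32.8 and 28.7 CPM in HER2R, 46.6 and 41.9 CPM in CEAR and 55.1 and 52.1 CPM in MKN45. RPS27L, a ribosomal protein paralogue that is a p53 target, on chromosome 15 (63125872 to 63158021), had 82.6 and 72.1 CPM in HER2R, 95.8 and 96.3 CPM in CEAR and 123 and 120.0 CPM in MKN45. For both genes HER2R was lowest, MKN45 highest, and the lines did not overlap. TRIAP1 was 1.74-fold lower in HER2R than in MKN45 (-0.80 ± 0.14, adjusted p = 0.0236), lost without HER2R library 1 (0.107) or 2 (0.145) or MKN45 library 1 (0.0861) or 2 (0.0768). RPS27L was 1.57-fold lower in HER2R than in MKN45 (-0.65 ± 0.13, adjusted p = 0.0275), lost without any 1 of the 6 libraries (0.0518 to 0.161) and with the compared lines alone (0.0521). Reads of RPS27L may be shared with its close paralogue RPS27 and its pseudogenes, and the sources used here give no counting rule for such reads.

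The remaining 3 genes of the group were not called by the edgeR fit described above. BBC3, the BH3-only protein PUMA, ranged from 4.07 to 9.99 CPM. AEN, an apoptosis-enhancing nuclease, ranged from 132 to 186 CPM and had the smallest range of the 30 genes, 1.41-fold between the lowest and the highest library. TP53INP1, a stress protein of autophagy and cell death, had 15.8 and 8.98 CPM in HER2R, 3.30 and 6.18 CPM in CEAR and 6.34 and 12.96 CPM in MKN45. HER2R lay above CEAR and overlapped with MKN45, which lay just above CEAR; HER2R against CEAR was 1.38 ± 0.48 (adjusted p = 0.107; 0.0258 with the block and 0.0265 by DESeq2).

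Of the 8 genes of metabolism and stress, 1 was called higher and 2 lower in HER2R than in MKN45. In CEAR, 3 were called lower than in MKN45, and 1 was called higher in HER2R than in CEAR. The shares of all tested genes called in these directions were 4.89%, 4.85%, 3.62% and 7.32% in the same order. SPATA18, also known as Mieap and linked to the quality control of mitochondria, lies on chromosome 4 (52051331 to 52097292). It had 1.86 and 0.714 CPM in HER2R (73 and 28 counts), 0.916 and 0.494 CPM in CEAR (38 and 22 counts) and 10.8 and 11.3 CPM in MKN45 (609 and 497 counts). Both derivatives lay far below MKN45 and overlapped each other, and over the 6 libraries its highest level was 22.9 times its lowest. It was 8.56-fold lower in HER2R than in MKN45 (-3.10 ± 0.43, adjusted p = 0.0122), lost only without HER2R library 2 (0.0687), and 15.7-fold lower in CEAR than in MKN45 (-3.97 ± 0.46, adjusted p = 0.00898), held without any 1 library. HER2R and CEAR differed by 0.88 ± 0.55 (adjusted p = 0.328).

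ZMAT3, a zinc finger RNA-binding protein that controls splicing and mRNA stability, lies on chromosome 3 (179017223 to 179072279) and was the other gene called lower in both derivatives. It had 78.6 and 53.5 CPM in HER2R, 59.3 and 65.8 CPM in CEAR and 117 and 135 CPM in MKN45. MKN45 stood above both derivatives, which overlapped. It was 1.91-fold lower in HER2R than in MKN45 (-0.93 ± 0.20, adjusted p = 0.0397), lost without any 1 library (0.0528 to 0.152), with the compared lines alone (0.0549) and with no filter (0.0556). It was 2.02-fold lower in CEAR than in MKN45 (-1.01 ± 0.20, adjusted p = 0.0400), lost without CEAR library 1 (0.162) or 2 (0.126) or MKN45 library 1 (0.0859) or 2 (0.140), with no filter (0.0589) and with library sizes alone (0.0510).

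GDF15, a secreted stress cytokine of the TGF-beta superfamily and a blood marker of tissue injury, lies on chromosome 19 (18374731 to 18389176). It had 998 and 1288 CPM in HER2R, 396 and 435 CPM in CEAR and 483 and 437 CPM in MKN45. HER2R stood apart, while CEAR lay just below MKN45. GDF15 was 2.49-fold higher in HER2R than in MKN45 (1.31 ± 0.18, adjusted p = 0.0126), lost without HER2R library 2 (0.0781) or MKN45 library 2 (0.0684). It was 2.75-fold higher in HER2R than in CEAR (1.46 ± 0.19, adjusted p = 0.00929), lost without HER2R library 2 (0.0664), CEAR library 1 (0.0540) or CEAR library 2 (0.0550). CEAR against MKN45 was -0.15 ± 0.18 (adjusted p = 0.697). Per kb of annotated exon, GDF15 had the highest mean level of the 30 genes in each line, at 548 CPM per kb in HER2R, 199 CPM per kb in CEAR and 220.3 CPM per kb in MKN45; PERP came second, at 91.4, 42.7 and 91.2 CPM per kb in the same lines.

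TIGAR, a phosphatase that lowers glycolysis in favour of the pentose phosphate pathway, lies on chromosome 12 (4307763 to 4354593). It had 29.4 and 24.9 CPM in HER2R, 24.3 and 17.6 CPM in CEAR and 46.3 and 38.7 CPM in MKN45. The lines did not overlap, with MKN45 highest. It was 2.03-fold lower in CEAR than in MKN45 (-1.02 ± 0.21, adjusted p = 0.0411), lost without any 1 library (0.0681 to 0.162), with the compared lines alone (0.0826), with no filter (0.0602) and with library sizes alone (0.0534). HER2R against MKN45 was -0.65 ± 0.21 (adjusted p = 0.0977; 0.00476 with the block and 0.0487 by DESeq2).

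The other 4 genes of this group were not called by the edgeR fit described above, and 3 of them lay lower in both derivatives than in MKN45 in every library. SESN1 and SESN2, sestrins that restrain the growth kinase mTORC1, ranged from 5.23 to 8.97 CPM and 27.1 to 33.4 CPM in HER2R, from 7.40 to 8.16 CPM and 25.4 to 25.9 CPM in CEAR, and from 12.6 to 16.5 CPM and 40.7 to 42.5 CPM in MKN45. SESN1 in HER2R against MKN45 was at -1.03 ± 0.30 (adjusted p = 0.0782; 0.0182 by DESeq2). SESN2 in CEAR against MKN45 was at -0.70 ± 0.15 (adjusted p = 0.0514), and it was called with the filter of 1 CPM (0.0497), by limma-voom (0.0499) and by DESeq2 (0.00259). FDXR, a mitochondrial reductase that supplies electrons through ferredoxin, had 30.5 and 20.4 CPM in HER2R, 21.01 and 16.4 CPM in CEAR and 35.0 and 32.6 CPM in MKN45. In CEAR against MKN45 it was at -0.85 ± 0.23 (adjusted p = 0.0864; 0.0169 by DESeq2). TP53I3, a quinone oxidoreductase, had 14.3 and 16.4 CPM in HER2R, 4.77 and 10.7 CPM in CEAR and 5.21 and 12.1 CPM in MKN45, so HER2R lay above both other lines, and in CEAR and in MKN45 the level of library 2 was more than double that of library 1.

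**Figure D3:**
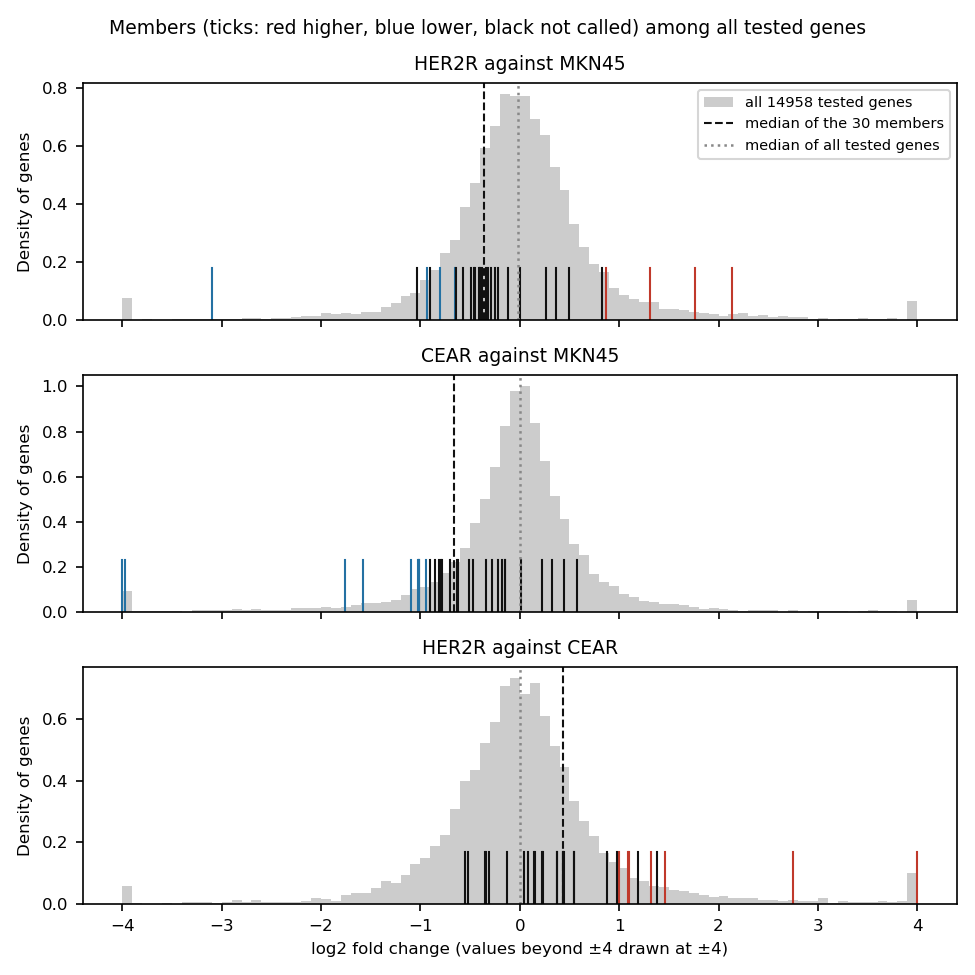
Distribution of the log2 fold changes of all 14958 tested genes (grey, density) in each comparison, with the 30 p53 target genes as ticks, red where called higher, blue where called lower and black where not called; values beyond 4 are drawn at 4. The dashed line, the median of the 30, lies at -0.36, -0.67 and 0.43 from top to bottom, and the dotted line, the median of all tested genes, near 0.

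Put together by pattern, 16 of the 30 genes were not called in any comparison. The others fell into 6 patterns: SPATA18 and ZMAT3 were lower in both derivatives than in MKN45; PLK2, PLK3 and GDF15 were higher in HER2R than in either other line; and CDKN1A, EDA2R, PERP and CYFIP2 were lower in CEAR than in either other line. PHLDA3 and TIGAR were called only in CEAR against MKN45, CCNG2 only as higher and TRIAP1 and RPS27L only as lower in HER2R against MKN45. For these last 5 genes HER2R against CEAR was not called by that fit (adjusted p = 0.0822 for PHLDA3, 0.269 for TIGAR, 0.0726 for CCNG2, 0.0565 for TRIAP1 and 0.143 for RPS27L). With the replicate block all 5 were called there, at 0.0217, 0.0372, 0.0160, 0.00602 and 0.0399 in the same order. DESeq2 called PHLDA3, CCNG2 and TRIAP1 there (0.0362, 0.0173 and 0.0162), and scaling by library size alone called TRIAP1 (0.0424).

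MDM4, the partner of MDM2 that binds and inhibits p53, had 50.8 and 36.4 CPM in HER2R, 40.2 and 38.6 CPM in CEAR and 31.0 and 28.3 CPM in MKN45. It was not called, at 0.56 ± 0.19 in HER2R against MKN45 (adjusted p = 0.111, 0.0152 with the block) and 0.41 ± 0.19 in CEAR against MKN45 (adjusted p = 0.255). The level of the p53 protein was not measured.

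Other genes known to be induced by p53 were taken as a list of 65 symbols, of which 64 were in the table and 61 were tested. In HER2R against MKN45, 3 were called higher and 6 lower, against 4.89% and 4.85% of all tested genes (median log2 fold change -0.30); with the replicate block the counts were 10 and 18, against 16.2% and 17.5%. In CEAR against MKN45, edgeR called 0 higher and 5 lower, against 2.57% and 3.62% of all (median -0.22); with the block they were 8 and 14, against 12.0% and 13.8%. Other counts in that comparison were 5 higher and 14 lower at an unadjusted p under 0.05 (10.8% and 12.5% of all). They were 4 and 8 by DESeq2 (6.28% and 7.75% of all) and 0 and 3 by limma-voom (2.4% and 3.35%). In HER2R against CEAR, 8 were called higher and 3 lower, against 7.32% and 6.75% of all (median 0.10); with the block they were 17 and 14, against 19.7% and 18.6%. With 1 library left out these became 1 to 3 higher and 0 to 5 lower in HER2R against MKN45, 0 higher and 1 to 2 lower in CEAR against MKN45, and 1 to 7 higher and 0 to 2 lower in HER2R against CEAR.

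ATF3, a stress transcription factor, had 13.6 and 9.34 CPM in HER2R, 3.69 and 2.31 CPM in CEAR and 1.65 and 2.37 CPM in MKN45, and was higher in HER2R than in MKN45 (2.53 ± 0.36, adjusted p = 0.0127). PLTP, a phospholipid transfer protein, had 2.78 and 3.93 CPM in HER2R against 0.0354 and 0.0455 CPM in MKN45 (6.30 ± 0.56, adjusted p = 0.00206). It passed the filter on low counts only through HER2R. In the MKN45 libraries 1 count was worth 0.0177 and 0.0227 CPM, so the size of the PLTP change is uncertain. THBS1, the matrix protein thrombospondin, had 136 and 74.7 CPM in HER2R against 15.2 and 6.44 CPM in MKN45 (3.27 ± 0.52, adjusted p = 0.0180). Among the 6 lower in HER2R than in MKN45 were PLCL2, CES2, PRKAB1 and CDIP1, with log2 fold changes from -3.11 for PLCL2 to -0.72 for PRKAB1. PLCL2 was also lower in CEAR, at 0.337 and 1.17 CPM against 7.07 and 5.89 CPM in MKN45 (-3.09 ± 0.50, adjusted p = 0.0211).

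Of the others called lower in CEAR than in MKN45, the cytokine LIF had 20.7 and 14.0 CPM in CEAR against 48.6 and 35.6 CPM in MKN45 (-1.28 ± 0.24, adjusted p = 0.0314). TNFRSF10C, a decoy receptor for the death ligand TRAIL, had 2.51 and 2.45 CPM in CEAR against 6.43 and 10.8 CPM in MKN45 (-1.79 ± 0.36, adjusted p = 0.0395). TLR3, a sensor of double-stranded RNA, had 0 and 0.157 CPM in CEAR against 2.98 and 8.41 CPM in MKN45 (adjusted p = 0.0190). LIF, PLTP, ATF3 and TLR3 were higher in HER2R than in CEAR, with adjusted p of 0.00942, 0.00312, 0.0215 and 0.0228. PIDD1, a death-domain scaffold protein, was lower in HER2R than in CEAR, at 13.2 and 9.92 CPM against 28.4 and 28.6 CPM (-1.30 ± 0.19, adjusted p = 0.0127), as were PRKAB1 and FBXO22 (adjusted p = 0.0462 and 0.0472). Of the genes named from this list, PLTP kept both of its calls without any 1 library, which is no added support because it passed the filter only through HER2R. The others each lost theirs without at least 1 library, and PRKAB1 and FBXO22 in HER2R against CEAR lost theirs without any 1 (0.0682 to 0.219 and 0.0691 to 0.197).

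Of 27 regulators and kinases of p53, 25 were tested. Among all tested genes, edgeR called 4.89% higher and 4.85% lower in HER2R against MKN45, and 2.57% and 3.62% in CEAR against MKN45. The shares for HER2R against CEAR were 7.32% and 6.75%. In HER2R against MKN45 the p53-binding inhibitor PPP1R13L and the deacetylase SIRT1 were called higher (0.79 ± 0.14 and 1.30 ± 0.23, adjusted p = 0.0230 for both), and PPP1R13B, a related protein that promotes the apoptotic function of p53, and the acetyltransferase KAT8 were called lower (-0.81 ± 0.14 and -0.96 ± 0.17, adjusted p = 0.0203 and 0.0248). In CEAR against MKN45 only the checkpoint kinase CHEK2 was called, at 18.6 and 17.6 CPM in CEAR against 9.50 and 10.1 CPM in MKN45 (0.89 ± 0.17, adjusted p = 0.0335, lost without any 1 library at 0.0813 to 0.150). No regulator was called lower in CEAR than in MKN45 by edgeR, at an unadjusted p under 0.05, by DESeq2 or by limma-voom. The shares of all tested genes lower there were 3.62%, 12.5%, 7.75% and 3.35% in the same order. HER2R against CEAR had 4 called higher (PPP1R13L, RPL11, KAT5 and SIRT1), and PPP1R13B was among those called lower (-0.68 ± 0.14, adjusted p = 0.0276). Each of these calls of regulators was lost without at least 1 library, and that of KAT5 without any 1 (0.0564 to 0.185).

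p53 lowers many cell cycle genes indirectly, through p21 and the DREAM repressor complex. Of 26 such genes, all tested, edgeR called 0 in HER2R against MKN45, against 4.89% of all tested genes higher and 4.85% lower. It also called 0 in CEAR against MKN45, against 2.57% and 3.62% of all. At an unadjusted p under 0.05 there were 0 in CEAR (10.8% and 12.5% of all). In HER2R there were 0 higher and 2 lower at that threshold, for which no share of all tested genes is given here. DESeq2 called 0 higher and 2 lower in HER2R (9.1% and 9.75% of all) and 0 in CEAR (6.28% and 7.75%). By limma-voom 0 were called in each (4.71% and 4.35% of all in HER2R, 2.4% and 3.35% in CEAR). With the replicate block there were 4 higher and 5 lower in HER2R (16.2% and 17.5% of all tested genes). There were 2 higher and 3 lower in CEAR (12.0% and 13.8%). In HER2R against CEAR the replication helicase subunit MCM5 and the transcription factor E2F1 were called lower (-0.79 ± 0.15 and -0.87 ± 0.22, adjusted p = 0.0240 and 0.0496, up to 0.131 and 0.218 with a library left out), and none was called higher by edgeR, DESeq2 or limma-voom or at an unadjusted p under 0.05 (7 higher and 6 lower with the block). For HER2R against CEAR, edgeR called 7.32% of all tested genes higher and 6.75% lower, and 19.7% and 18.6% with the block. The shares higher there were 11.9% by DESeq2, 6.76% by limma-voom and 16.3% at an unadjusted p under 0.05. The median log2 fold change of the 26 was 0.05 in HER2R against MKN45, 0.06 in CEAR against MKN45 and -0.01 in HER2R against CEAR.

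The 2 libraries of a line differed by up to more than 1 on the log2 scale for some p53 targets. Library 2 was below library 1 in all 3 lines for 10 of the 30 genes (33.3%), against 25.3% of all tested genes, and above it for 3 (10%), against 26.9%. CCNG1 and DDB2 were among the 10 and BTG2 and TP53I3 among the 3. What the library number stands for is not given in the labels.

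**Figure D4:**
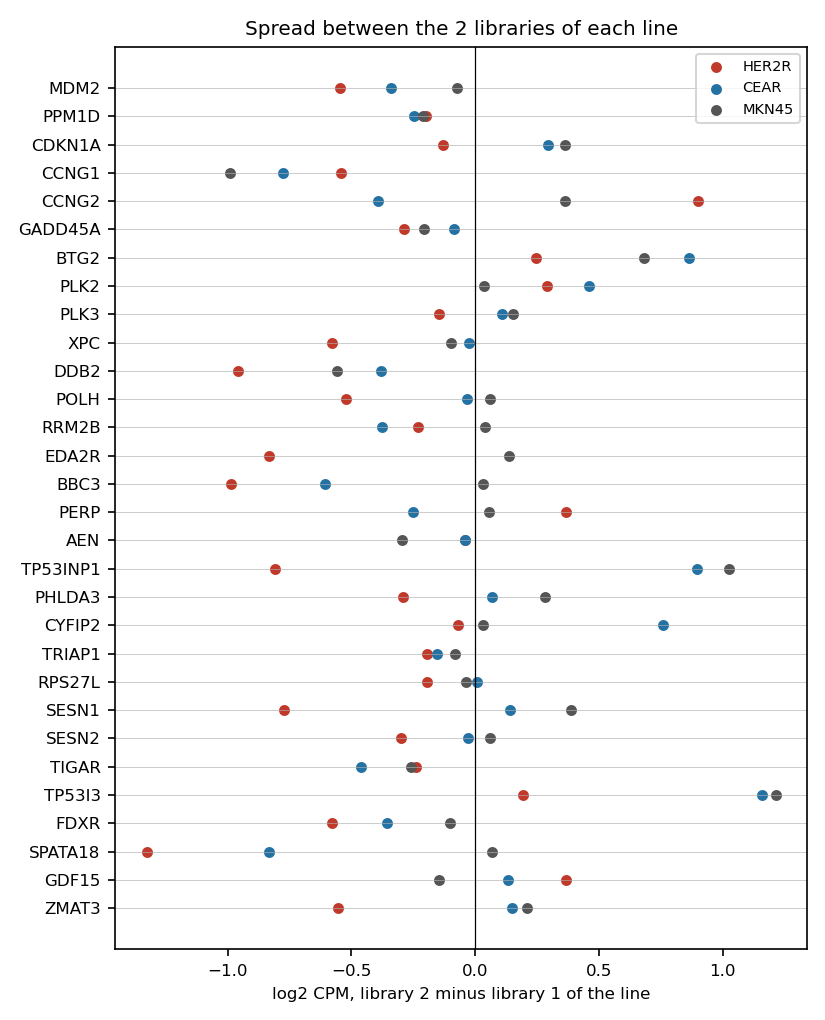
Difference in log2 CPM between library 2 and library 1 of each line for the 30 genes (EDA2R in CEAR is left out, at 0 counts), with HER2R in red, CEAR in blue and MKN45 in grey. For 10 genes all 3 points lie left of 0 and for 3 genes all lie right of it.

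EDA2R and SPATA18 showed the greatest fold differences of the 30 genes, so the genes within 2 Mb of each (GENCODE 29 positions) were examined; this window was chosen after the values were seen. Around EDA2R 11 genes were in the table and 7 were tested, of which 2 were called in each derivative against MKN45. Among all tested genes, 4.89% were called higher and 4.85% lower in HER2R against MKN45, and 2.57% and 3.62% in CEAR. MSN, which encodes the membrane linker moesin, at -0.854 Mb (toward the start of the chromosome), was higher, at 172 and 252 CPM in HER2R, 73.1 and 86.4 CPM in CEAR and 18.7 and 17.5 CPM in MKN45 (log2 fold change 3.55 in HER2R and 2.14 in CEAR, adjusted p = 0.00187 and 0.00608). HEPH, the copper oxidase hephaestin at -0.327 Mb, was lower, at 7.41 and 14.5 CPM in HER2R, 4.07 and 14.1 CPM in CEAR and 47.7 and 95.1 CPM in MKN45 (-2.70 and -2.97, adjusted p = 0.0488 and 0.0497). The calls of MSN held without any 1 library, while those of HEPH held in 2 of the 6 left-out fits in HER2R and in 1 of 6 in CEAR (up to 0.227 and 0.147). The other tested genes there were not called, among them ZC3H12B at -1.29 in HER2R and -0.18 in CEAR (adjusted p = 0.0810 and 0.814), and 0 counts in CEAR were not shared by the tested neighbours of EDA2R.

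Around SPATA18 17 genes were in the table and 12 were tested. Of these, 2 were called in HER2R and 1 in CEAR against MKN45, with the same shares of all tested genes as above. SGCB, a sarcoglycan gene next to it, was lower in both derivatives, at 1.15 and 1.51 CPM in HER2R, 2.65 and 3.71 CPM in CEAR and 10.4 and 10.2 CPM in MKN45 (-2.95 and -1.69, adjusted p = 0.00462 and 0.0197). Its call in HER2R was lost without HER2R library 1 (0.0502), and in CEAR it held in 1 of the 6 left-out fits (up to 0.0999). LRRC66, on the other side of SGCB, was at 0 and 0.0510 CPM in HER2R, 0.217 and 0.315 CPM in CEAR and 0.301 and 3.09 CPM in MKN45, and was not called (adjusted p = 0.0703 and 0.197). ERVMER34-1, 0.625 Mb away, was higher in HER2R, at 11.7 and 13.9 CPM against 1.45 and 2.46 CPM in MKN45 (2.73, adjusted p = 0.00783, 0.0627 without HER2R library 2). DCUN1D4 and USP46, further out on either side, lay at -0.47 and -0.18 in HER2R and -0.03 and 0.00 in CEAR and were not called.

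**Figure D5:**
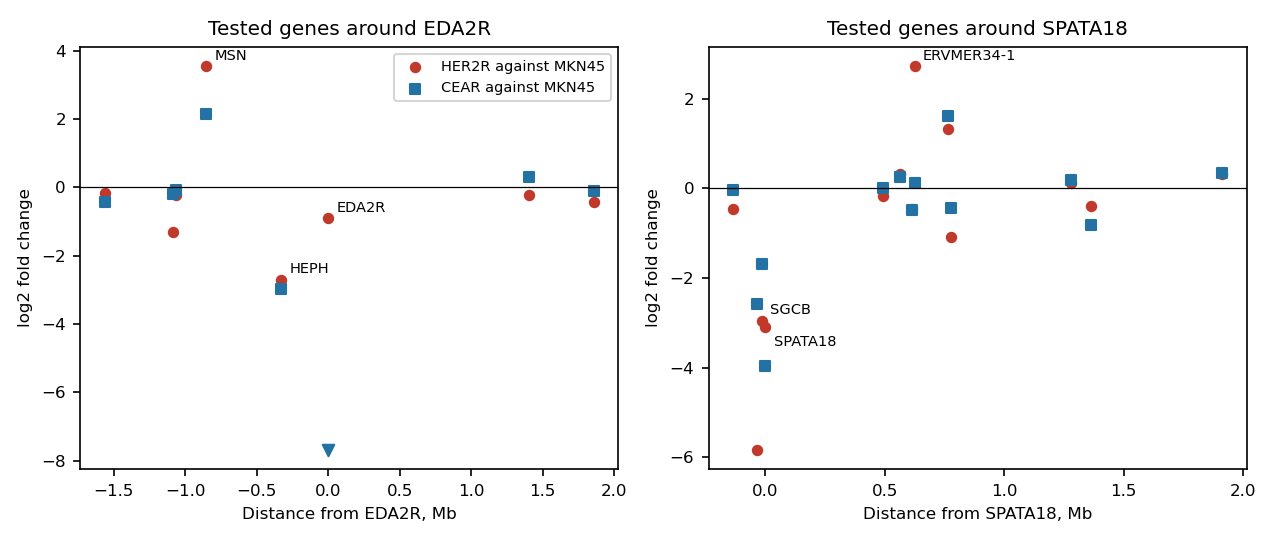
Log2 fold change against MKN45 of the tested genes within 2 Mb of EDA2R (left) and SPATA18 (right) by distance in Mb, with HER2R as red circles and CEAR as blue squares; the triangle is the bound for EDA2R in CEAR, and genes called in either derivative are named with EDA2R and SPATA18. SGCB lies low beside SPATA18 in both derivatives, and MSN and HEPH lie on opposite sides of 0 beside EDA2R.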

How the data were processed

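Total RNA of 6 cell line libraries was depleted of ribosomal RNA and made into stranded libraries, per the labels' protocols. The authors deposited 1 table of gene counts with 1 column per library; all 6 columns were used. The submitters' processing notes name GRCh38 and limma without a role; for the aligner, the counter and the strand setting, the value is not given in the sources used here. Deposited counts were whole numbers and were not rescaled before testing.

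Genes were filtered with filterByExpr (14958 of 29744 symbols kept, 14786 removed) and tested with edgeR 4.0.16 (TMM, glmQLFit, glmQLFTest; 3 residual and 3.51 prior degrees of freedom) in R 4.3.3, with 1 term per line over all 6 libraries and Benjamini-Hochberg adjustment over all tested genes. The scripts were tested on simulated counts. Fold limits against 0 counts used 3 counts over a line and cover counting error only. Alternatives were RLE factors, library sizes alone, no filter, a filter of 1 CPM in 2 libraries, the compared lines alone, the replicate number as a block, DESeq2 1.42.0, limma-voom (limma 3.58.1) and each library left out; where that leaves a line with 1 library, it is assumed to vary like the other lines.

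Across all tested genes, the library 2 minus library 1 differences of the lines correlated at 0.355 (HER2R and CEAR), 0.378 (HER2R and MKN45) and 0.545 (CEAR and MKN45). The replicate number was therefore entered as a block in an alternative fit. The main edgeR fit had no term for it, so its calls are not paired. The labels do not say what the numbers stand for. Gene positions are those of GENCODE 29.

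The p53 targets, the other lists (of 65 other p53-inducible symbols, 62 matched directly and 2 through an older symbol; of 27 regulators, 26 and 1) and the tests were chosen with earlier results of these data known. All 30 targets and MDM4 are named whatever their values; from other lists, at most 4 called genes per direction and comparison with the lowest adjusted p, at 1 CPM or more on average in a compared line. Neighbouring genes were named after their values were seen. Results for some genes are not reported here.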

Additional observations from a re-analysis of the deposited data

Results flagged for a closer look

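For 7 p53 targets the difference between the derivatives was itself called by edgeR, in the contrast of HER2R with CEAR. The log2 differences, HER2R minus CEAR, were 2.75 for PLK2, 1.46 for GDF15, 1.32 for CDKN1A, 1.10 for PERP, 1.09 for PLK3 and 1.00 for CYFIP2. EDA2R had a fitted value of 10.41, which depends on the prior count because EDA2R had 0 counts in CEAR; its bound is at least 110-fold lower in CEAR than in HER2R. PLK2 (2.13 in HER2R and -0.62 in CEAR), GDF15 (1.31 and -0.15) and PLK3 (0.87 and -0.22) had fitted values against MKN45 of opposite sign in the 2 derivatives, of which those in CEAR were not called. The comparisons with MKN45 share the MKN45 libraries.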

How the results depend on the processing

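With the replicate block, p53 targets called numbered 6 higher and 14 lower in HER2R against MKN45, 1 and 18 in CEAR against MKN45, and 16 and 4 in HER2R against CEAR. Other p53-inducible genes numbered 10 and 18, 8 and 14, and 17 and 14. The shares of all tested genes in the same order were 16.2% and 17.5%, 12.0% and 13.8%, and 19.7% and 18.6%. The block ended none of the calls of the 30 p53 targets. DESeq2 gave 1 p53 target lower in HER2R against CEAR, and 5 and 15, 4 and 8, and 14 and 10 other p53-inducible genes. Its shares of all tested genes in the same order were 9.1% and 9.75%, 6.28% and 7.75%, and 11.9% and 11.0%. The compared lines alone gave 2 p53 targets lower in HER2R and 5 in CEAR against MKN45, and 1 other p53-inducible gene lower in CEAR. Library sizes alone gave 1 p53 target lower in HER2R against CEAR. With no filter, 3 other p53-inducible genes were lower in CEAR against MKN45 and 1 in HER2R against CEAR. By limma-voom 3 were lower in CEAR (3.35% of all tested genes). For the compared lines alone, library sizes alone, no filter and the left-out fits, no share of all tested genes is given. Those counts therefore cannot be set against one.

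With a library left out, p53 targets called numbered 1 to 3 higher and 0 to 2 lower in HER2R against MKN45, 3 to 5 lower in CEAR against MKN45 and 2 to 6 higher in HER2R against CEAR; other p53-inducible genes numbered 1 to 3 and 0 to 5, 1 to 2 lower, and 1 to 7 and 0 to 2. Uncalled log2 fold changes that changed sign with a library left out were, in HER2R against MKN45, BBC3 (-0.83 to 0.16), CCNG1 (-0.91 to 0.089), DDB2 (-0.68 to 0.28), PERP (-0.19 to 0.17), TP53INP1 (-0.10 to 0.96) and XPC (-0.54 to 0.039). In CEAR against MKN45 they were AEN (-0.13 to 0.18), DDB2 (-0.033 to 0.54) and TP53I3 (-0.85 to 0.57). In HER2R against CEAR they were BBC3 (-0.036 to 0.96), CCNG1 (-0.20 to 0.58), DDB2 (-0.90 to 0.061), GADD45A (-0.11 to 0.18), MDM2 (-0.081 to 0.47), POLH (-0.14 to 0.39), SESN1 (-0.58 to 0.21) and ZMAT3 (-0.23 to 0.33). PERP in HER2R against MKN45 was -0.0010 with library sizes alone, -0.011 with no filter and -0.0077 by limma-voom, and GADD45A in HER2R against CEAR was -0.030 with library sizes alone. No called p53 target changed sign under any of these settings. The cause of these changes was not tested. Depth limits SPATA18 most among the detected genes, at 22 to 73 counts in the derivatives.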
